A study of Mus musculus with 2 samples.

Results

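B cells of the infarcted mouse heart were taken as the barcodes with at least 3 UMIs of Cd79a, Cd79b and Ms4a1 summed, 0 UMIs of the T cell receptor complex genes Cd3d, Cd3e and Cd3g, and 0 UMIs of Siglech, a gene of plasmacytoid dendritic cells. A UMI (unique molecular identifier) stands for 1 captured RNA molecule. By this rule there were 198 B cells among 10144 kept barcodes, 140 of 5835 in the anti-PD1 library and 58 of 4309 in the anti-IgG library. A barcode was kept with 300 genes and 500 UMIs or more and with mitochondrial genes taking no more than 10% of its UMIs. The hearts came from wild-type (WT) mice 7 days after myocardial infarction (MI), which all mice had undergone. One library was made after injection of an antibody against PD1, the inhibitory receptor encoded by Pdcd1, and the other after injection of anti-IgG. Strain, age, antibody dose and the number of hearts in a library are not given in the sources used here. The labels call the samples T cells, and the design text speaks of sorted cells, while the protocol describes enzymatic dissociation and the removal of red and dead cells, with no sort. The B cells are therefore those found in a preparation labelled T cells, and their number is not the number in the heart. Whether B cells were depleted from the preparation is not known. Each group was 1 library, so no difference between groups was tested. All intervals are 95% intervals that cover counting error only, and the treatment cannot be told apart from any other difference between the libraries.

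B cells recognise antigen through surface immunoglobulin, which signals through the paired chains encoded by Cd79a and Cd79b. Naive follicular cells carry IgM and IgD, recirculate through lymphoid tissue under the receptors Ccr7 and Cxcr5 and present antigen on MHC class II, and they may switch to IgG, IgA or IgE and become antibody-secreting plasma cells. In mouse hearts B cells are among the resident leukocytes, many of them held in small vessels, and after infarction they are known to release Ccl7, which draws monocytes from the bone marrow.

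The values that chose the cells are a description only. Summed Cd79a, Cd79b and Ms4a1 had a median of 15 UMIs in anti-PD1 B cells (3 to 75) and 20 in anti-IgG B cells (4 to 55). The threshold fell in a sparse range: among barcodes without Cd3 or Siglech UMIs, 1 anti-PD1 and 0 anti-IgG barcodes had exactly 3 of these UMIs, 4 and 0 had exactly 2, and 9 and 3 had 1. Genes that the rule did not use were those of B cells. Ebf1, a transcription factor of the B lineage, was seen in 107 of 140 anti-PD1 and 52 of 58 anti-IgG B cells, and Fcmr, the receptor for IgM, in 119 and 49 cells. In T cells, defined by at least 2 Cd3 UMIs and 0 UMIs of the rule's B cell genes (4771 anti-PD1 and 3607 anti-IgG cells), the Fcmr level was 0.00227 and 0.00167 UMIs per 10000, against 8.17 and 7.29 in B cells. Apart from the rule's own genes, the B identity list had 19 members, and all had at least 30 UMIs.

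Median depth was 2407.5 UMIs and 1158.5 genes in anti-PD1 B cells, and 2771 UMIs and 1286.5 genes in anti-IgG B cells. T cells were deeper, at 3753 and 3983 UMIs. Of 21 T cell markers, 12 were at 0 in anti-PD1 and 15 in anti-IgG B cells, with Trac, Cd4 and Cd8a at 0 in both, while Cd2 was seen in 55 and 23 cells. The 10 neutrophil markers were all at 0. UMIs of at least 2 of the macrophage genes Lyz2, C1qa, C1qb, C1qc, Csf1r and Cd68 were found in 5 anti-PD1 and 2 anti-IgG B cells. Markers of natural killer cells had 4 and 1 UMIs in all, those of heart muscle 2 and 3, those of fibroblasts 29 and 5, those of endothelium 50 and 24 and those of red cells and platelets 30 and 18. Of the 12 markers on the plasmacytoid list, 4 and 6 were at 0, and of the 12 on the conventional dendritic list, which holds Ccr7, 4 and 7 were at 0. The libraries shared 47 barcodes, of which 0 anti-PD1 and 1 anti-IgG barcodes were B cells.

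B cells were more frequent in the anti-PD1 library. The share of kept barcodes was 2.40% (2.02% to 2.83%, Clopper-Pearson) in anti-PD1 and 1.35% (1.02% to 1.74%) in anti-IgG, a ratio of 1.78 (1.32 to 2.41). Barcodes that carried both B cell and Cd3 UMIs were more numerous than the B cells themselves, with 196 in anti-PD1 and 69 in anti-IgG, or 57.6% and 53.1% of all kept barcodes with at least 3 B cell UMIs. Their median depth was 7671.5 and 7163 UMIs. A doublet score marked 272 of 5835 anti-PD1 and 149 of 4309 anti-IgG kept barcodes, numbers set by an expected rate. Among the barcodes with both B cell and Cd3 UMIs it marked 39 of 196 and 3 of 69, against 0 of the B cells in both libraries. With these barcodes counted as B cells, the shares were 5.76% and 2.95%. Whether they were pairs of cells was not tested. A preparation that keeps more of the B cells and a heart that holds more of them cannot be told apart here.

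Among the B cells, 4 stood apart by their immunoglobulin. Immunoglobulin genes took up to 4.18% of the UMIs in 139 anti-PD1 B cells and up to 3.47% in 55 anti-IgG B cells, and no B cell lay between those values and 42.8%. The 4 immunoglobulin-rich cells were 1 of 140 in anti-PD1 (0.714%, 0.0181% to 3.92%) and 3 of 58 in anti-IgG (5.17%, 1.08% to 14.4%). They carried Jchain, the chain that joins IgA and IgM into polymers, which had 0 UMIs in all other B cells, and the plasma cell regulator Xbp1 at 15 UMIs in the anti-PD1 cell and at 63, 24 and 26 UMIs in the anti-IgG cells. Ms4a1, Pax5 and H2-Aa, genes known to be switched off in plasma cells, had 0 UMIs in all 4.

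**Figure D1:**
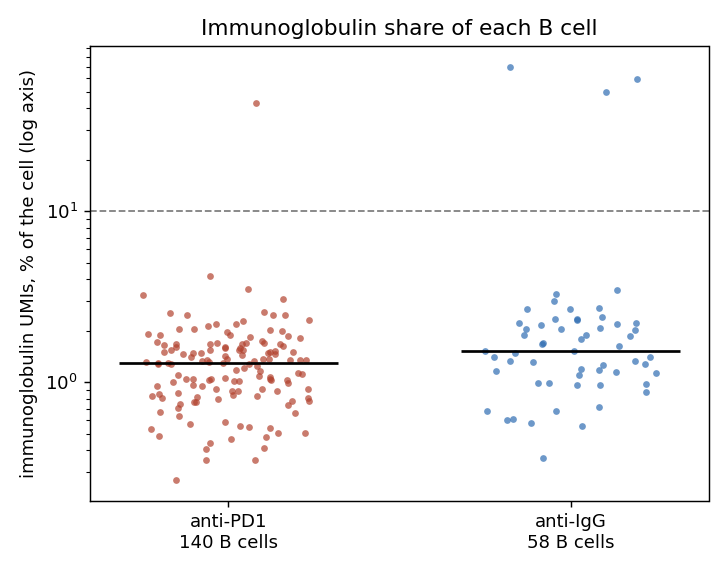
Share of each B cell's UMIs that came from immunoglobulin genes (log axis), one point per cell, with the median as a bar and a dashed line at 10%. 1 anti-PD1 cell and 3 anti-IgG cells lie above the line, at 42.8% to 70.3%, and all others lie below 4.2%.

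Each of these cells was dominated by 1 heavy and 1 light chain. The anti-PD1 cell held 8564 UMIs, 42.8% of them immunoglobulin, with 1779 of Ighv10-1, 899 of Igkv4-53 and 319 of Igha, the IgA constant region. The first anti-IgG cell held 25336 UMIs, 70.3% immunoglobulin, with 5048 of Ighv7-3, 10307 of Igkv10-96 and 689 of Ighm, the IgM constant region. The second had 3245 UMIs of Ighv1-81, 5155 of Igkv1-110 and 430 of Igha, and the third 2931, 4176 and 362 of the same 3 genes. Both IgA cells of the anti-IgG library thus shared their V segments. The counts give no junction sequence, so they do not show whether the cells were of 1 clone.

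The Cd3 condition of the rule bears on the count of these cells. Of the kept barcodes outside the rule, 3 in anti-PD1 and 1 in anti-IgG also had over 10% immunoglobulin, each with Cd3 UMIs, so that with them the libraries had 4 and 4. The largest, an anti-PD1 barcode with 40377 UMIs and 8 Cd3 UMIs, held 10774 UMIs of Ighv1-81, 11748 of Igkv1-110 and 1461 of Igha. The other anti-PD1 barcodes carried Ighv1-81 with Igkv4-57 and Ighv1-39 with Igkv1-110, both with Igha, and the anti-IgG barcode carried Ighv1-81 with Igkv9-120 and 840 UMIs of Ighm. The pairing of Ighv1-81, Igkv1-110 and Igha was therefore seen in both libraries.

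The 3 anti-IgG cells held 25.0% of all B cell UMIs of their library, and the anti-PD1 cell 2.00%. They therefore set the apparent level of many genes, and each ratio below, which is the anti-PD1 over anti-IgG ratio of a gene's share of B cell UMIs, is given for all B cells and, as a choice made after the data were seen, for the 139 and 55 other B cells. With all B cells, immunoglobulin made up 2.08% of anti-PD1 and 16.5% of anti-IgG UMIs. In the other B cells it made up 1.25% and 1.56%. Of 3167 genes with at least 30 UMIs, 695 were at least 1.5-fold higher in anti-PD1, a background of 21.9%, and 220 were at least 1.5-fold lower, a background of 6.95%. In the other B cells, 392 of 3008 genes were higher (13.0%) and 335 lower (11.1%). The median gene had a log2 ratio of 0.20 in all B cells and -0.01 in the others, so ratios over all B cells sit on a shift of 0.20, and of all genes past 1.5-fold 76.0% were higher with all B cells and 53.9% without the immunoglobulin-rich cells. That share was 46.6% per UMI outside mitochondrial, ribosomal and immunoglobulin genes, and 53.4% with ratios centred on the median gene.

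The constant regions show this. Ighm had 388 UMIs in anti-PD1 and 867 in anti-IgG B cells, a ratio of 0.244 (0.216 to 0.275), and 0.909 (0.759 to 1.09) in the other B cells, since 689 of the anti-IgG UMIs lay in 1 cell. It was 1.13 in the 35 anti-PD1 and 10 anti-IgG cells with 0 UMIs of the T cell markers and of the macrophage and monocyte markers. Below, these are the cells with 0 UMIs of other markers. Markers of further cell types were not part of that choice. It left out every cell with a UMI of Cd2 or Apoe, so it is not known to be a purer set of B cells. Igkc, the kappa light chain, had 560 and 1688 UMIs, a ratio of 0.181, and 0.755 (0.635 to 0.900) in the other B cells. Of the 9 plasma cell genes with at least 30 UMIs, 0 were higher and 5 lower (Jchain, Xbp1, Txndc5, Mzb1 and Tnfrsf17, the receptor BCMA), against 21.9% and 6.95% of all genes, with a median log2 ratio of -1.52. Without the immunoglobulin-rich cells, 2 of 6 were higher and 0 lower (13.0% and 11.1% of all genes), with a median of -0.02. Hsp90b1, a chaperone of the endoplasmic reticulum, had ratios of 0.759 and 0.865. Irf4, which drives plasma cell formation and also responds to antigen, had 85 and 59 UMIs, a ratio of 0.785, and 1.77 (1.03 to 3.20) in the other B cells. The unfolded protein response list had 1 of 16 genes higher and 4 lower in all B cells (21.9% and 6.95% of all genes), and 0 of 13 either way in the others (13.0% and 11.1%). On that list Hspa5 had ratios of 1.01 and 1.03, Calr 1.01 and 1.09, Pdia4 0.551 and 0.810, Atf6 1.58 and 1.33 and Dnajb9 1.09 and 1.25 with all and with the other B cells.

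IgD marks the naive stage, and its share of cells depended on the thinning and on the cells kept. Ighd had 114 UMIs in 73 anti-PD1 cells and 70 UMIs in 36 anti-IgG cells, a ratio of 0.887 (0.653 to 1.21), and 0.689 (0.507 to 0.943) in the other B cells. After thinning every cell to 1000 UMIs (1 anti-PD1 cell was shallower), Ighd was seen in 25.2% of anti-PD1 and 39.7% of anti-IgG B cells in the draw plotted, a ratio of 0.635 (0.414 to 0.974). The share expected over all such draws was 25.4% and 32.8%, and 25.6% and 34.5% without the immunoglobulin-rich cells, so the anti-IgG share of that draw lay above its expected value. Among cells with 0 UMIs of the T cell and macrophage markers, the direction turned, with 13 of 34 anti-PD1 and 2 of 10 anti-IgG cells (ratio 1.91, 0.515 to 7.09). Unthinned, it was seen in 52.1% and 62.1%. In thinned T cells, which should lack the gene, the shares were 0.0211% and 0.0558%. Fcer2a, the IgE receptor CD23 of follicular B cells, was seen in 84 of 140 and 35 of 58 cells.

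Switched constant regions were rare. UMIs of IgG, IgA or IgE without Ighd were seen in 7 of 140 anti-PD1 and 3 of 58 anti-IgG cells, and after thinning in 2 of 139 and 3 of 58. Apart from the immunoglobulin-rich cells, Igha had 4 UMIs in anti-PD1 and 0 in anti-IgG. Ighg3 had 9 UMIs in 4 anti-PD1 cells and 6 in 1 anti-IgG cell. Igha was seen in 0.817% and 0.388% of T cells, which puts single UMIs of it near background.

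**Figure D2:**
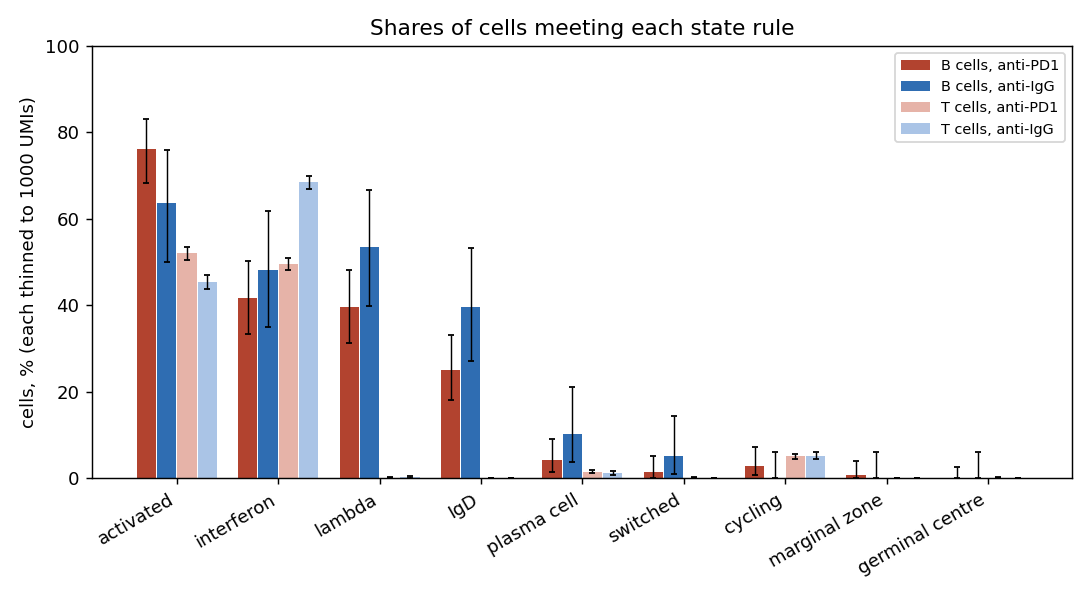
Share of cells that met each state rule in 1 draw of 1000 UMIs per cell, for B cells (dark bars) and T cells (pale bars) of each library, with exact 95% counting intervals. IgD was seen in 25.2% of anti-PD1 and 39.7% of anti-IgG B cells, and the activated rule was met by 76.3% and 63.8%.

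Most B cells differed from each other in their V segments. Among the other B cells, 120 of 139 anti-PD1 and 50 of 55 anti-IgG cells had at least 2 UMIs of heavy chain V segments, and in 91.7% and 96.0% of these 1 segment held at least 80% of them. They used 45 and 26 different heavy segments, of which Ighv1-81 was the most frequent in both, in 22 cells (18.3%) and 13 cells (26.0%). Kappa V segments were seen likewise in 125 and 52 cells, with 50 and 35 different segments. In the 80 anti-PD1 cells with both a dominant heavy and a dominant kappa segment there were 76 different pairs, of which Ighv1-81 with Igkv6-15 was seen in 4 cells and Ighv1-55 with Igkv10-96 in 2. In the 35 such anti-IgG cells all 35 pairs differed. In T cells, heavy V segments were seen in 0.671% and 1.05% of cells. V segments are near copies of each other, and reads of one may be counted under another, so the share of Ighv1-81 is uncertain.

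Light chain usage depended on which part of the chain was counted. The lambda constant regions Iglc1, Iglc2 and Iglc3 outnumbered Igkc in 39.6% of thinned anti-PD1 and 53.4% of thinned anti-IgG B cells. By V segments, lambda outnumbered kappa in 15 of 137 anti-PD1 cells (10.9%) and 3 of 54 anti-IgG cells (5.56%). Among the other B cells, kappa V segments had 2504 and 1326 UMIs, against 373 and 206 of Igkc. The lambda constant region genes were lower in anti-PD1: Iglc1 had 62 and 63 UMIs (ratio 0.536, and 0.460 in the other B cells), Iglc3 218 and 200 (0.594 and 0.614) and Iglc2 315 and 198 (0.867 and 0.790). Lambda V segments went the other way, with 373 and 79 UMIs in the other B cells, 0.0889% and 0.0451% of all UMIs. In 90 and 71 plasmacytoid cells, taken by their Siglech UMIs, Iglc3 had 533 and 535 UMIs, so its UMIs alone do not mark lambda use. Iglc2 and Iglc3 are near-identical, so their split is uncertain.

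Early response genes differed between the libraries in both directions. Of the 31 early activation genes with at least 30 UMIs, 13 were at least 1.5-fold higher in anti-PD1 and 2 lower (background 21.9% and 6.95%). In the other B cells 11 of 30 were higher and 5 lower (background 13.0% and 11.1%), with a median log2 ratio of 0.21, against -0.01 for all genes. Higher in anti-PD1 were Nr4a1, Crem, Rgs2, Rgs1, Per1, Kdm6b, Dusp5, Myc, Irf4, Cd83 and Tnfaip3. Lower were Jun, Fos, Fosb, Egr1 and Dusp2. The share of cells with a UMI that is expected over all draws of 1000 UMIs lay on the same side for each of these 16 genes, but by little for some: it was 8.43% of anti-PD1 and 6.17% of anti-IgG B cells for Tnfaip3, and 5.53% and 4.54% for Rgs1.

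Nr4a1, a nuclear receptor induced within minutes by antigen receptor signals, had 292 UMIs in 78 anti-PD1 cells and 43 UMIs in 16 anti-IgG cells. Its level was 6.82 and 1.84 UMIs per 10000, a ratio of 3.70 (2.68 to 5.22), and 2.83 (2.05 to 4.0) in the other B cells. Thinned, it was seen in 36.7% and 17.2% of B cells and in 31.0% and 7.53% of T cells. The same gene was higher in anti-PD1 T cells, by 4.89-fold. Crem, a regulator of cAMP-responsive genes, had 42 UMIs in 30 anti-PD1 cells and 3 UMIs in 3 anti-IgG cells, a ratio of 7.63 (2.44 to 38.5). Rgs2, which shortens signals from G protein-coupled receptors, had 34 UMIs in 25 anti-PD1 cells and 1 UMI in 1 anti-IgG cell, a ratio of 18.5 (3.11 to 753). Without the immunoglobulin-rich cells the ratios were 5.84 for Crem and 14.2 for Rgs2. With the cell richest in Rgs2 left out of each library, anti-IgG had 0 UMIs and Rgs2 was at least 5.62-fold higher against a floor of 3 UMIs. Thinned, it was seen in 9 of 139 and 0 of 58 cells, at least 1.39-fold against the same floor.

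Per1, Myc and Cd83 had larger counts. Per1, a clock gene induced by cAMP, had 114 and 26 UMIs (ratio 2.39, and 2.38 in the other B cells). Myc, which drives growth, had 109 UMIs in 38 anti-PD1 cells and 22 in 14 anti-IgG cells (2.70 and 2.07). Cd83, a membrane protein that stabilises MHC class II, had 345 and 82 UMIs in 102 and 31 cells (2.29 and 1.75). Junb had 899 and 264 UMIs, with a ratio of 1.85 in all B cells, 1.45 in the others and 0.932 in cells with 0 UMIs of other markers, and the related Jund had ratios of 1.03 and 0.874.

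Jun and Fos, the subunits of the AP-1 factor, went the other way. Jun had 167 UMIs in 51 anti-PD1 cells and 221 in 39 anti-IgG cells, a ratio of 0.412 (0.335 to 0.505), and 0.464 (0.370 to 0.583) in the other B cells. Fos had 230 UMIs in 58 and 249 in 36 cells, with ratios of 0.503 and 0.581 (0.474 to 0.715). Thinned, Jun was seen in 19.4% of anti-PD1 and 50.0% of anti-IgG B cells. In T cells, Jun and Fos had ratios of 0.573 and 0.625. Cd69, which holds activated lymphocytes in tissue, had 176 and 115 UMIs and ratios of 0.834 and 0.729, and Zfp36, whose protein promotes mRNA decay, had 1.40 and 1.24. The rule for activated cells, at least 1 UMI of Nr4a1, Cd69, Cd83 or Egr1 in a thinned cell, was met by 76.3% of anti-PD1 and 63.8% of anti-IgG B cells, and by 52.0% and 45.4% of T cells, and the intervals of the B cell shares overlapped. Over all draws the expected B cell shares were 74.2% and 60.6%, and 74.4% and 62.1% without the immunoglobulin-rich cells. Tissue digestion is known to induce Jun and Fos. Both genes were lower, as were Hspa1a and Hspa1b of the heat shock list, in anti-PD1 B cells, and the part of the digestion in these values was not tested.

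**Figure D3:**
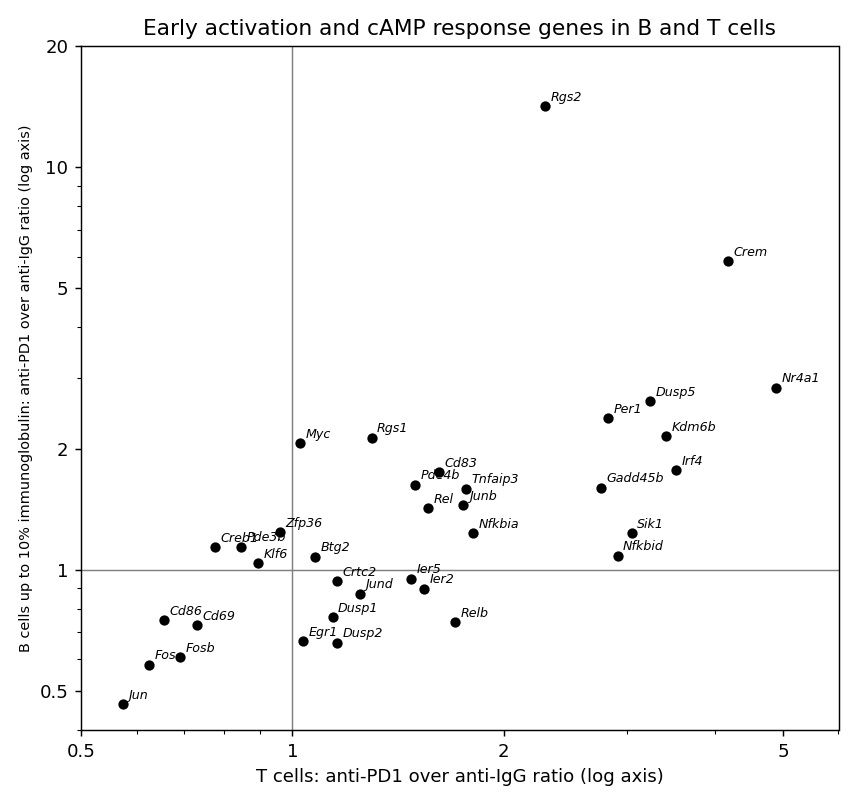
Anti-PD1 over anti-IgG ratio of 36 early activation and cAMP response genes with at least 30 UMIs in B cells, in T cells (horizontal, log axis) and in B cells without the immunoglobulin-rich cells (vertical, log axis); lines mark a ratio of 1. Nr4a1 stands at 4.89 in T cells and 2.83 in B cells, Rgs2 at 2.29 and 14.2, and Jun at 0.573 and 0.464. B and T cells come from the same libraries.

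The list of cAMP and CREB response genes overlaps the early activation list. Of its 11 genes with at least 30 UMIs, 5 were higher in anti-PD1 (Nr4a1, Crem, Rgs2, Per1 and the phosphodiesterase Pde4b) and 0 lower, against backgrounds of 21.9% and 6.95%. These counts were 5 and 0 again in the other B cells, against backgrounds of 13.0% and 11.1%. Pde4b, which degrades cAMP, had 126 and 34 UMIs in 83 and 27 cells (2.02, and 1.63 in the other B cells). Dusp1, a phosphatase gene of the same list, had ratios of 0.986 and 0.764. The median log2 ratio of the list was 0.57 in all B cells, 0.30 in the others and 0.58 in T cells.

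CREB binds the motif TGACGTCA and, more weakly, its shorter form TGACG, which reads CGTCA on the other strand. In the windows from 250 bases before to 50 bases after each start site (RefSeq, GRCm38.p6, both strands searched, overlaps counted), TGACG or CGTCA occurs in 20.8% of 32851 windows, at least 4 matches occur in 0.231%, and TGACGTCA, which holds both short forms, in 1.79%. Windows for 3 genes are printed because their values differed in direction: Nr4a1 and Rgs2 were higher and Fos lower in anti-PD1. The Nr4a1 window at chr15:101266596-101266895 (+ strand) holds 4 matches, the Rgs2 window at chr1:144004100-144004399 (- strand) 2 and the Fos window at chr12:85473640-85473939 (+ strand) 2, shown in capitals.
Nr4a1: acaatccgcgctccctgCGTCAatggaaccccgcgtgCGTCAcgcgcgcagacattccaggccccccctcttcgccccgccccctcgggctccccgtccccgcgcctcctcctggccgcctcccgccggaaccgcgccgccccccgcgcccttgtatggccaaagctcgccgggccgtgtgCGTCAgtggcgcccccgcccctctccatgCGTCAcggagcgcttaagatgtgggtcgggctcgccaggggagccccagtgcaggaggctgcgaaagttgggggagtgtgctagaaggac
Rgs2: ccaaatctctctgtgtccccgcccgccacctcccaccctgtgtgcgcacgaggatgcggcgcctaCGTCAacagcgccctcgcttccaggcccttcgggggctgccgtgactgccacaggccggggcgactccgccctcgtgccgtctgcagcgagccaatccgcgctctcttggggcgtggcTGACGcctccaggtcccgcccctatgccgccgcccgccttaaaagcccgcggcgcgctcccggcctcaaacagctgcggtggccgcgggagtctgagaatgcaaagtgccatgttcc
Fos: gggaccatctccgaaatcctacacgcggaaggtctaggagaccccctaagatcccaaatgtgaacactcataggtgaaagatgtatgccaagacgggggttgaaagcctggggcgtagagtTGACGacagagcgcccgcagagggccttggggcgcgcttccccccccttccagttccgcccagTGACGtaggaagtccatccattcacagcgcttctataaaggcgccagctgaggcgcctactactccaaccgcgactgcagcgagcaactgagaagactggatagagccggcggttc
The short motif thus stands in all 3 windows, whichever way the gene differed. Of the 23 genes of the cAMP and CREB list, 17 had a window and 10 of these held the short motif. On the early activation list, 29 of 40 genes had a window and 19 of these held it. A gene was counted if any of its windows held the motif, while 20.8% is a share of single windows, so the values are not alike. A match is a description of the letters and does not show that a factor was bound.

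Among homing genes, Cxcr5 and Ccr7 were higher in anti-PD1 B cells. Of 14 homing genes with at least 30 UMIs, 5 were higher and 0 lower (21.9% and 6.95% of all genes). In the other B cells the counts were 3 and 0 (13.0% and 11.1% of all genes), the third gene being Itgb7, an integrin gene. Cxcr5, the receptor that leads B cells to follicles, had 81 UMIs in 55 of 140 anti-PD1 cells and 12 UMIs in 11 of 58 anti-IgG cells, a ratio of 3.68 (1.99 to 7.41), and 2.82 (1.53 to 5.67) in the other B cells. Ccr7, which leads lymphocytes into lymph nodes, had 458 UMIs in 110 cells and 123 in 30 cells, with ratios of 2.03 (1.66 to 2.50) and 1.55 (1.27 to 1.91). P2ry10, a receptor for lysophospholipids, had 142 and 41 UMIs (1.89 and 1.48), and 0.798 in cells with 0 UMIs of other markers. Not every homing gene differed: Klf2, a factor of lymphocyte recirculation, had 810 and 337 UMIs (1.31 and 1.08), S1pr4 28 and 18 (0.847 and 0.898) and the integrin gene Itga4 93 and 56 (0.905 and 0.939). In T cells Ccr7 had a ratio of 1.70 and Cxcr5 of 1.20.

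Follicular genes were split. Of 15 such genes, 5 were higher and 1 lower in all B cells (21.9% and 6.95% of all genes), and 3 and 3 in the others (13.0% and 11.1%). Besides Cxcr5 and Ccr7, Satb1, an organiser of chromatin, had 134 and 33 UMIs (2.21, and 1.69 in the other B cells) and Btg1, which restrains proliferation, 616 and 219 (1.53 and 1.18, and 0.969 in cells with 0 UMIs of other markers). Fcmr had 350 and 170 UMIs (1.12 and 0.859). Bcl2, which protects from cell death, had 32 UMIs in 25 anti-PD1 cells and 34 in 24 anti-IgG cells (0.513 and 0.431, 0.252 to 0.737). Zfp318, needed for IgD transcripts in mice, had 74 and 50 UMIs (0.806, and 0.617 with an interval of 0.425 to 0.902), on the same side of 1 as Ighd.

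Other stages were rarely seen. The marginal zone rule (Cr2 with Cd1d1 or Cd9) was met by 1 of 139 anti-PD1 and 0 of 58 anti-IgG thinned cells, and by 4 and 1 unthinned cells. Cr2, the complement receptor CD21, had 45 and 28 UMIs (0.875 and 0.670), and on the same list Plac8 had 165 and 94 (0.956 and 1.23), Mzb1 70 and 109 (0.350 and 0.782), Notch2 64 and 30 (1.16 and 0.921), Tm6sf1 28 and 8 (1.91 and 1.46) and Dtx1 26 and 10 (1.42 and 1.08). Germinal centre cells by at least 2 of 6 genes were 0 of 139 and 0 of 58, which allows shares of up to 2.16% and 5.17% by a limit of 3 counts, and 1 of 140 and 0 of 58 unthinned cells. Bcl6, the factor of that stage, had 16 and 7 UMIs, Basp1 11 and 3, Il21r 92 and 37 (1.35 and 1.04) and the DNA glycosylase gene Neil1 45 and 9 (2.72 and 2.09, and 0.985 in cells with 0 UMIs of other markers). Of the transitional genes, Vpreb3 had 81 and 52 UMIs (0.848 and 0.704), Cd24a 84 and 40 (1.14 and 0.969), Ms4a4c 51 and 26 (1.07 and 0.818) and Tmem108 21 and 11 (1.04 and 0.796), so 0 of 4 passed 1.5-fold, against 21.9% of all genes higher and 6.95% lower. Cycling cells, with Mki67 or Top2a after thinning, were 4 of 139 and 0 of 58, against 5.08% and 5.27% of T cells. Unthinned, they were 11 of 140 anti-PD1 B cells (7.86%) and 4 of 58 anti-IgG B cells (6.90%), against 13.2% and 14.7% of T cells. Of 6 cell cycle genes with at least 30 UMIs, 4 were higher in all B cells (21.9% of all genes) and 1 in the others (13.0%), the centromere histone gene Cenpa with 34 and 8 UMIs (2.31 and 1.77). Hmgb2 had 89 and 27 UMIs (1.80 and 1.41), Tuba1b 47 and 16 (1.60 and 1.23), Pcna 25 and 7 (1.95 and 1.43), Tubb5 147 and 57 (1.40 and 1.16) and Hmgn2 78 and 40 (1.06 and 0.834).

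A small set of B cells lacked most IgD and carried genes of B-1 and atypical memory cells. Fcrl5, an Fc receptor-like gene of such cells, had 39 UMIs in 14 anti-PD1 and 5 in 3 anti-IgG cells (4.25, 1.67 to 13.8, and 3.25 in the other B cells), and Plscr1 had 33 UMIs in 11 and 4 in 2 cells (4.49 and 3.44). Cells with UMIs of at least 2 of Fcrl5, Plscr1, Zbtb32 and Bhlhe41, a choice made after the values were seen, were 9 of 139 (6.47%, 3.0% to 11.9%) in anti-PD1 and 3 of 55 (5.45%, 1.14% to 15.1%) in anti-IgG. These cells were deep, with medians of 6172 and 8632 UMIs, and a rule of 2 genes is met more often in deep cells. S100a6, a calcium-binding protein of memory and B-1 cells, had 113 of its 144 anti-PD1 UMIs in these 9 cells and all 26 of the anti-IgG UMIs outside the immunoglobulin-rich cells in these 3. Ighd had 0.472 and 0 UMIs per 10000 in them, against 3.12 and 4.56 in the remaining cells, while Ighm had 10.4 and 15.6, against 9.04 and 9.32. Cd5, which marks the B-1a subset, had 0 UMIs in them. One anti-IgG cell of the 3 had 33 UMIs of the macrophage gene Lyz2, and its part in these values was not tested.

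The B-1 list as a whole was split. Of 10 genes with at least 30 UMIs, 5 were higher and 3 lower in all B cells (21.9% and 6.95% of all genes), and 4 and 2 of 8 in the others (13.0% and 11.1%). S100a6 had 144 UMIs in 23 anti-PD1 and 29 in 4 anti-IgG cells (2.70 and 2.31), Vim, the intermediate filament vimentin, 226 and 79 UMIs (1.56 and 1.57, but 0.460 in cells with 0 UMIs of other markers) and Ptpn22 44 and 30 (0.799 and 0.633). Lgals1, the lectin galectin-1, had 39 and 40 UMIs with a ratio of 0.531 in all B cells and 1.46 in the others. Anxa2 had 14 and 39 UMIs (0.196), of which 7 and 1 lay outside the immunoglobulin-rich cells. Of 7 memory and age-associated genes, 2 were higher (Fcrl5 and Zeb2) and 0 lower (21.9% and 6.95% of all genes), and of 6 in the other B cells 1 was higher and 2 lower (13.0% and 11.1%). Zeb2 had 50 and 14 UMIs (1.95 and 1.49), Cd38 86 and 52 (0.901 and 0.703), Hhex 33 and 23 (0.782 and 0.598) and Zbtb20 25 and 17 (0.801 and 0.613).

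The target of the antibody was not seen in B cells. Pdcd1 had 0 UMIs in 140 anti-PD1 and 58 anti-IgG B cells, which by a limit of 3 counts allows shares of cells with a UMI of up to 2.14% and 5.17%, while T cells had 1.81 and 1.22 UMIs per 10000. Cd274, which encodes its ligand PD-L1, had 30 UMIs in 21 anti-PD1 cells and 18 in 11 anti-IgG cells, a ratio of 0.908 (0.490 to 1.73), so a difference was not detectable at this depth. Pdcd1lg2, the other ligand, had 7 and 4 UMIs. Of 9 inhibitory receptor genes with at least 30 UMIs, 2 were higher and 0 lower (21.9% and 6.95% of all genes), and in the other B cells 0 of 8 were higher (13.0% of all genes) and 2 lower (11.1%). Those were Siglecg, an inhibitor of B cell receptor signals, with 66 and 49 UMIs (0.734 in all and 0.562, 0.382 to 0.830, in the other B cells), and Btla with 64 and 46 (0.758 and 0.580, 0.391 to 0.867). Cd22 had 102 and 56 UMIs (0.992 and 0.760), Fcgr2b, the inhibitory IgG receptor, 109 and 46 (1.29 and 1.01), Cd72 124 and 43 (1.57 and 1.20) and Cd52 620 and 360 (0.938 and 0.748). Ctla4, a receptor better known in T cells, had 28 UMIs in 5 anti-PD1 cells and 4 in 2 anti-IgG cells.

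Antigen presentation was near even once the immunoglobulin-rich cells were set aside. The class II list had 7 of 19 genes higher and 1 lower in all B cells (21.9% and 6.95% of all genes), and 2 and 2 in the others (13.0% and 11.1%), with medians of 0.50 and 0.11. Cd74, the invariant chain, had 10800 and 4488 UMIs (1.31 and 1.03), H2-Aa 2842 and 1097 (1.41 and 1.08), H2-Eb1 1931 and 712 (1.48 and 1.13) and H2-Ab1 2098 and 700 (1.63 and 1.25, 1.15 to 1.37). H2-Oa, which tunes peptide loading in B cells, had 143 and 39 UMIs (2.00 and 1.53). Marchf1, the ubiquitin ligase that removes class II from the surface and is opposed by Cd83, had 63 UMIs in 48 anti-PD1 cells and 62 in 40 anti-IgG cells, a ratio of 0.553 (0.384 to 0.799), and 0.424 (0.294 to 0.612) in the other B cells. Ciita, the class II transactivator, had 50 and 33 UMIs (0.825 and 0.632).

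Antigen receptor signalling genes differed about as often as all genes. Of 25 genes with at least 30 UMIs, apart from Cd79a and Cd79b of the rule, 6 were higher and 0 lower (21.9% and 6.95% of all genes), and 3 and 1 in the other B cells (13.0% and 11.1%), shares near or below those of all genes. The Src family kinase gene Fyn had 27 UMIs in 23 anti-PD1 cells and 3 in 3 anti-IgG cells (4.90, and 3.75 with an interval of 1.16 to 19.3), and the adaptor gene Pik3ap1 82 and 20 (2.23 and 1.71). Ptprc, the phosphatase CD45, had 236 and 132 UMIs (0.974 and 0.787), Bank1, a scaffold, 318 and 135 (1.28 and 0.983) and Dapp1 28 and 20 (0.763 and 0.584). Ly6d had 630 and 385 UMIs (0.891 and 0.845), Cd37 628 and 262 (1.31 and 1.01) and Pou2f2 103 and 36 (1.56 and 1.19). Of the 19 B identity genes outside the rule, 2 were higher and 0 lower in all B cells (21.9% and 6.95% of all genes), and 0 and 1 (Ebf1, 0.665) in the others (13.0% and 11.1%).

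Few cytokines were measured. Of 28 cytokine genes, 5 had at least 30 UMIs and 12 had 0, among them Il10 and Il6. Tgfb1, which encodes TGF-beta, had 175 UMIs in 91 of 140 anti-PD1 cells and 38 in 25 of 58 anti-IgG cells, a ratio of 2.51 (1.76 to 3.66), and 2.03 (1.41 to 2.99) in the other B cells. In T cells it was 1.80. Ltb, a subunit of lymphotoxin, had 254 and 143 UMIs (0.967 and 0.741) and Il16 62 and 34 (0.993 and 0.794). Ccl7 had 9 UMIs in 2 anti-PD1 cells and 0 in anti-IgG cells. Il1b had 59 UMIs in 4 anti-PD1 cells, 45 of them in 1 cell, and 0 in anti-IgG cells, or 10.7-fold against a floor of 3 UMIs over the anti-IgG B cells. Over the alternative settings its lowest value was 2.61-fold. Apoe, a gene of macrophages, had 1068 and 300 UMIs (1.94 and 1.48), of which 485 and 174 lay in 1 cell of each library. It was seen in 41.4% of anti-PD1 and 50.0% of anti-IgG B cells but in 4.53% and 4.38% of T cells. The 20 macrophage and monocyte markers together, 2 of them at 0 in anti-PD1 and 4 in anti-IgG, had 49.0 and 32.7 UMIs per 10000 in B cells, with a median of 1 UMI per cell in both libraries and a maximum of 815 and 302. Their part in Apoe, Il1b and Ccl7 was not tested.

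Survival and sensing genes were mixed. Of 12 survival genes, 2 were higher and 2 lower (21.9% and 6.95% of all genes), and of 11 in the other B cells again 2 and 2 (13.0% and 11.1%). Tnfrsf13c, the receptor for the survival factor BAFF, had 54 UMIs in 38 anti-PD1 cells and 41 in 26 anti-IgG cells (0.717, and 0.563 with an interval of 0.367 to 0.870). Bcl2l11, which encodes the death-promoting BIM, had 34 and 8 UMIs (2.31 and 1.56), Pim1 107 and 41 (1.42 and 1.77), Mcl1 200 and 99 (1.10 and 0.983), Birc3 133 and 49 (1.48 and 1.14), Nfkb1 65 and 36 (0.983 and 0.742) and Nfkb2 52 and 17 (1.67 and 1.25). Of 7 innate sensing genes, 1 was higher and 1 lower (21.9% and 6.95% of all genes), and 0 and 1 in the other B cells (13.0% and 11.1%). Cd180 had 23 and 22 UMIs (0.569 and 0.505), Unc93b1, which carries the nucleic acid sensors, 281 and 119 (1.29 and 1.09), Ly86 160 and 80 (1.09 and 0.845), Irf8 119 and 45 (1.44 and 1.20) and Irf5 51 and 17 (1.63 and 1.25).

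Type I interferon genes tended to be lower in anti-PD1 when the immunoglobulin-rich cells were left out. In all B cells 1 of 12 was higher and 0 lower (21.9% and 6.95% of all genes), with a median log2 ratio of -0.18. In the others 0 of 11 were higher and 5 lower (among them Ifi209, Ifi203, Samd9l and Trim30a), against a background of 11.1%, with a median of -0.44, and the T cell median was -0.55. Ifi203, a nucleic acid sensor, had 74 and 52 UMIs (0.775 and 0.581, 0.400 to 0.849), Trim30a 17 and 13 (0.712 and 0.545), Ifi27l2a 232 and 106 (1.19 and 0.738), Ly6a 187 and 104 (0.979 and 0.929), Ly6e 1261 and 585 (1.17 and 1.00), Rnf213 27 and 8 (1.84 and 1.41) and Irf9 18 and 14 (0.700 and 0.645). At least 3 genes of the list were seen in 41.7% of thinned anti-PD1 and 48.3% of thinned anti-IgG B cells, shares whose intervals overlapped, and in 49.5% and 68.5% of T cells.

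**Figure D4:**
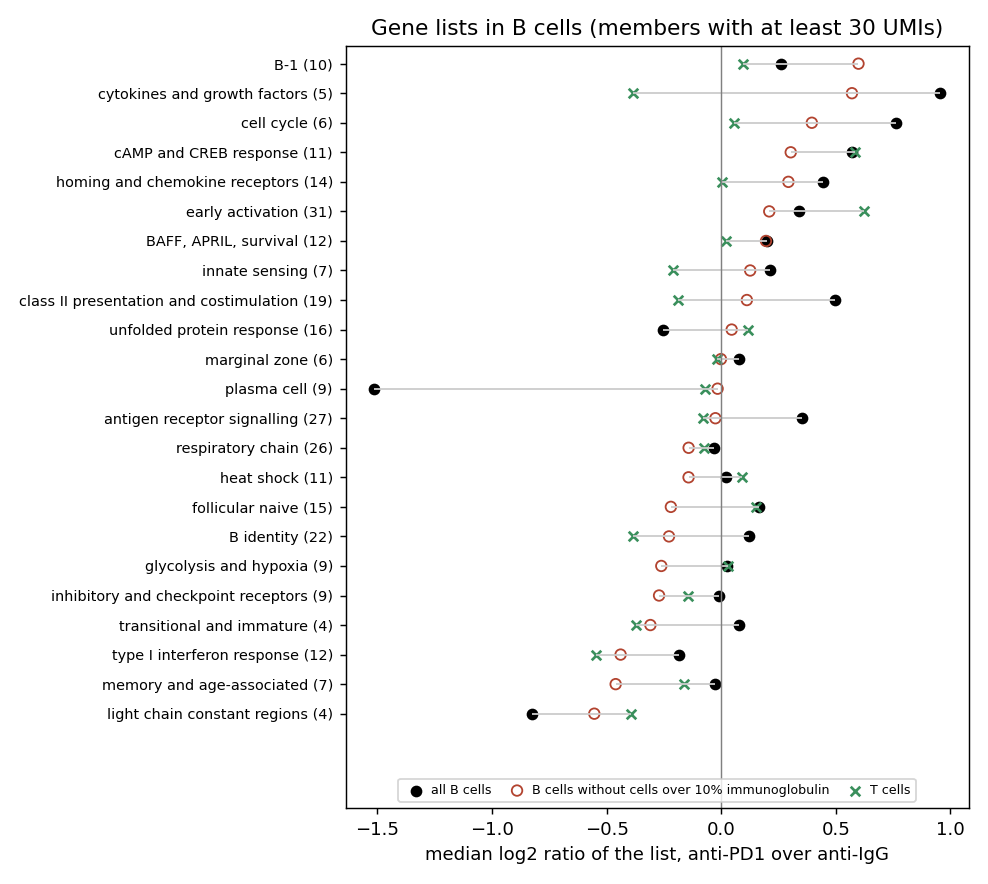
Median log2 anti-PD1 over anti-IgG ratio of each gene list in all B cells (filled), in B cells without the immunoglobulin-rich cells (open) and in T cells (crosses), with the number of members with at least 30 UMIs in all B cells in brackets. The plasma cell list stands at -1.52 in all B cells and at -0.02 without the immunoglobulin-rich cells, while the cAMP and CREB response list stays above 0 in all 3.

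Heat shock genes included members on either side of 1. Of 11 such genes, 1 was higher and 3 lower (21.9% and 6.95% of all genes), and 1 and 4 in the other B cells (13.0% and 11.1% of all genes). Hsph1 had 15 UMIs in 15 anti-PD1 cells and 21 in 15 anti-IgG cells (0.389 and 0.298, 0.143 to 0.606), Hspa1b 38 and 38 UMIs in 5 and 7 cells (0.545 and 0.417), and the mitochondrial chaperone gene Hspd1 62 and 15 (2.25 and 1.85). Hsp90ab1 had 707 and 282 UMIs (1.37 and 1.09), Hspa8 455 and 187 (1.33 and 1.08) and Hsp90aa1 140 and 75 (1.02 and 0.906). Of 9 glycolysis genes, 0 were higher or lower in all B cells (21.9% and 6.95% of all genes) and 1 was lower in the others (Hif1a, 0.605), against 11.1% of all genes. Gapdh had 195 and 112 UMIs (0.948 and 0.801), Aldoa 192 and 83 (1.26 and 1.03), Pkm 142 and 62 (1.25 and 1.36), Gpi1 124 and 74 (0.913 and 0.723) and Pgk1 31 and 13 (1.30 and 0.931). Of 26 respiratory chain genes, 1 was higher and 3 lower (21.9% and 6.95% of all genes), and 1 of 25 (Sdhb, 4.03) and 0 in the others (13.0% and 11.1%). Sdhb had 58 and 12 UMIs, Cox4i1 297 and 140 (1.16 and 1.06), Cox8a 269 and 127 (1.15 and 1.03), Atp5e 193 and 130 (0.809 and 0.785), Uqcrh 192 and 97 (1.08 and 0.906), Cox7a2 90 and 38 (1.29 and 1.29), Ndufa1 31 and 34 (0.497 and 0.864) and Ndufa4 91 and 99 (0.501 and 0.844).

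Across all genes, 297 higher and 67 lower in anti-PD1 had a ratio of at least 1.5 either way, an interval that left out 1, UMIs in at least 10 cells of the higher library and a ratio that held without the cell with most UMIs of the gene. By ratio alone, 695 and 220 of 3167 genes passed 1.5-fold, and 392 and 335 of 3008 in the other B cells. The median gene of all B cells sat at 0.20, and 10 cells are a smaller part of 140 than of 58. Both made it easier for a gene to count as higher. The 15 highest were Rgs2, Crem, B3gnt7, Fbxo11, Eef1e1, Sh2d2a, Fyn, Gm15441, Plscr1, Irs2, Itpr3, Fcrl5, Socs3, Tmem192 and Ppp1r14b, with ratios of 18.5 to 3.90, all on 1 to 6 UMIs in anti-IgG. They stayed at 2.92 to 14.2 in the other B cells. There Itpr3 kept 3 of its 6 anti-IgG UMIs, while the immunoglobulin-rich cells held few or no UMIs of the rest. Leaving those cells out changed the ratios of the rest mainly through the total of UMIs, so it is a weak check of them. Over the alternative settings given at the end, the lowest ratio of each gene ran from 1.18 (B3gnt7) to 5.49 (Crem). It was 1.39 for Rgs2, Tmem192 and Ppp1r14b. Irs2, an adaptor of insulin signals, had 48 UMIs in 37 anti-PD1 and 6 in 6 anti-IgG cells (4.36 and 3.34), and T cells had a ratio of 3.47. Itpr3, a calcium channel of the endoplasmic reticulum, had 47 UMIs in 37 and 6 in 4 cells (4.27 and 6.53), with 0.962 in T cells. B3gnt7, a glycosyltransferase gene, had 34 UMIs in 23 and 3 in 3 cells (6.17 and 4.73). Socs3, an inhibitor of cytokine signals, had 44 UMIs in 15 and 6 in 5 cells (3.99 and 3.06).

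The 15 lowest were Xbp1, Igkc, Pycard, Trp53inp1, Txndc5, Edem2, Rexo2, Mzb1, Glcci1, Rasa2, Nfx1, Hsph1, Fndc3a, Fkbp2 and Mrpl18, with ratios of 0.165 to 0.393. Most of these ratios came from the immunoglobulin-rich cells. Xbp1 had 37 and 122 UMIs (0.165 in all and 1.02 in the other B cells), Txndc5 51 and 102 (0.272 and 1.59) and Pycard, the inflammasome adaptor ASC, 43 and 117 (0.20 and 0.730). The ones past 1.5-fold with an interval below 1 in the other B cells too were Glcci1 (0.345), Rasa2 (0.362), Nfx1 (0.303), Hsph1 (0.298) and Mrpl18 (0.387). Glcci1, a transcript induced by glucocorticoid, had 19 UMIs in 18 anti-PD1 and 28 in 22 anti-IgG cells, and T cells had a ratio of 0.631. Nfx1, a repressor named for its binding to class II promoters, had 16 UMIs in 15 and 23 in 20 cells, with 0.995 in T cells.

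**Figure D5:**
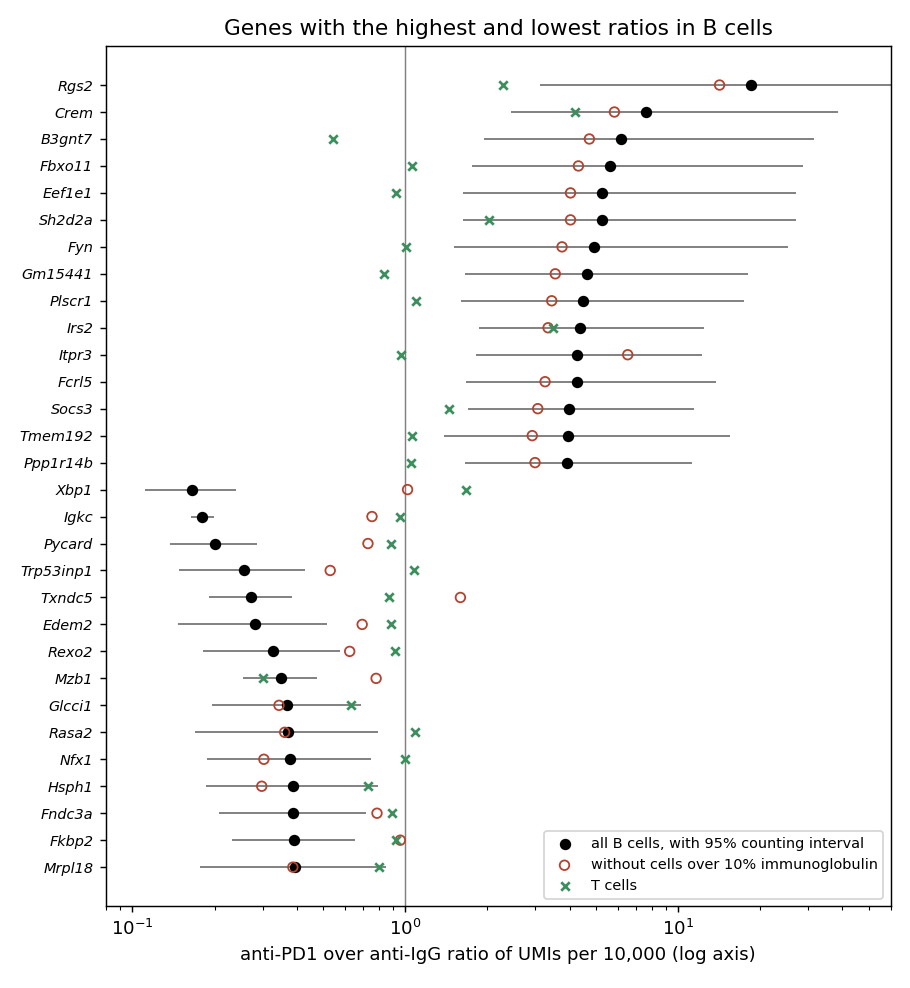
Anti-PD1 over anti-IgG ratio (log axis) of the 15 genes with the highest and the 15 with the lowest ratios, for all B cells with 95% counting intervals (filled; that of Rgs2 runs past the axis), for B cells without the immunoglobulin-rich cells (open) and for T cells (crosses; none for Fcrl5, which had 0 anti-IgG UMIs there). The 15 highest keep open points between 2.92 and 14.2, while 10 of the 15 lowest have open points between 0.531 and 1.59.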

How the data were processed

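Raw UMI counts per gene and barcode were used as deposited. Cell Ranger 7.1.0 wrote them, per the file headers. Version 7.2.0 of it, with Seurat 4.4.0 and the mm10 build, stands in the submitters' processing notes. No source used here names the gene annotation. The kit is the 3' v3 kit per the labels, but the barcodes begin like those of another kit and V segments had more UMIs than constant regions, so which transcript end was read is unsure.

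The B cells and gene lists were chosen with earlier results of these data known. For each library, a gene's UMIs over all B cells were divided by all their UMIs, and ratios have exact 95% intervals conditional on the summed UMIs; shares have Clopper-Pearson intervals. UMIs that lie together in few cells make ratio intervals too narrow. A gene with 0 UMIs in one library was set to 3 counts for counts of genes and medians of lists. Genes in 25 lists (10 more hold markers of other cells) were named by the 4 with most UMIs and, with at least 30 UMIs, the 2 highest and 2 lowest ratios; further genes by the rule given above. Other genes named were chosen after their values were seen. Xist, Tsix and Y-linked genes were left out, and a few members of the lists are counted but not reported here by name. Thinning drew 1000 UMIs per cell once, and shares expected over all draws (hypergeometric) were added after the data were seen; they are not tied to 1 draw. Limits beside a count of 0 are 3 counts. Scrublet's own threshold marked 6 anti-PD1 and 0 anti-IgG barcodes, so the highest scores were marked at 0.8% per 1000 cells (272 and 149 barcodes), as an alternative; no barcode was removed as a doublet. The ratio code was tested on simulated data. Python 3.11.15, numpy 2.4.6, scipy 1.17.1, pandas 2.3.3, scanpy 1.11.5 and matplotlib 3.10.9 were used.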

Additional observations from a re-analysis of the deposited data

How the results depend on the processing

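No paired analysis was possible because each group was 1 library, and for the same reason no replicate could be left out. The ratio of B cell shares lay between 1.54 (at least 1000 genes) and 1.95 (barcodes with Cd3 UMIs counted), all within its counting interval. The number of genes at least 1.5-fold higher and lower was 142 and 99 with thinned cells, 379 and 434 per UMI without mitochondrial, ribosomal and immunoglobulin genes, 392 and 335 without the immunoglobulin-rich cells, 363 and 340 also without cells with macrophage genes, 430 and 375 centred on the median gene, 122 and 39 among genes with at least 100 UMIs and 2569 and 1974 among genes with at least 1 UMI in each library. With each cell weighted alike 488 genes were higher and 367 lower. In the 35 anti-PD1 and 10 anti-IgG B cells with 0 UMIs of other markers, 77 were higher and 48 lower, and the ratios of shares were 1.91 for IgD (0.515 to 7.09; 0.635 in all B cells), 1.32 for lambda and 0.588 for interferon; there, genes past 1.5-fold in all B cells crossed 1 for Btg1 (0.969), Ighm (1.13), Junb (0.932), Neil1 (0.985), P2ry10 (0.798), Txndc5 (1.08) and Vim (0.460). Without the immunoglobulin-rich cells Lgals1 (1.46), Txndc5 (1.59) and Xbp1 (1.02) crossed 1, and without cells with macrophage genes as well Fkbp2 (1.15), Lgals1 (1.51) and Txndc5 (1.5). Thinned, Lgals1 (1.36) and Ndufa4 (1.91) crossed 1. Without the cell with most UMIs of the gene Ighm (1.05) and Lgals1 (1.01) did. Of 1831 recomputed ratios of 159 named genes, 1536 stayed within the counting interval and 278 moved outside it. The other 17 are the crossings of 1 listed here, of genes past 1.5-fold in all B cells. Genes nearer 1 crossed it too and are counted among the 1536 and 278. Irf4, at 0.785 in all B cells, reached 1.77, and Hspa8, at 1.33, reached 0.788. Alternatives with under 10 UMIs of a gene were left out. The cause of the other changes was not tested. With 58 anti-IgG B cells, genes of under 30 UMIs could not be compared.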
